A study of Danio rerio with 32 samples.

Results

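The genes described here lie on the long arm of zebrafish chromosome 4. They were taken as the rows of the count table whose first chromosome entry is 4 and whose smallest exon start is at or past 30 Mb on the GRCz11 assembly, which gave 1552 of 32057 genes (4.84%). The 828 genes of chromosome 4 that start before 30 Mb were the comparison region. RNA was sequenced from pools of 80 tailbuds cut from embryos at 16 somites, with 4 pools in each of 8 groups. The BIO groups were rad21-/-, rad21+/-, stag2b-/- and wild type embryos kept in 2.5 µM BIO, an inhibitor of Gsk3 that activates canonical Wnt signaling, from 4 h post-fertilization until dissection. The untreated groups were rad21-/-, rad21+/-, stag2b-/- and wild type embryos raised without BIO. Rad21 is a core subunit of the cohesin ring, and Stag2b is one of the Stag subunits that join the ring. The rad21 mutants carried the nz171 allele, and homozygotes and heterozygotes came from the same line and were told apart by genotyping heads. The stag2b mutants carried the nz207 allele, and wild type embryos were of the WIK strain. Each mutation was therefore represented by 1 line, so that in every comparison with wild type the mutation and the background of its line cannot be told apart.

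The long arm of zebrafish chromosome 4 is known as a late-replicating, heterochromatic arm filled with repeats. It carries clusters of 5S ribosomal RNA and spliceosomal small nuclear RNA genes, a maternally used ribosomal DNA locus, and large tandem families that encode C2H2 zinc finger proteins and NLR immune receptors. Cohesin holds sister chromatids together and forms the chromatin loops through which it influences transcription.

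The named families of this kind differed in how far the annotation placed them on the arm. Of all genes in the table named U6 or U1, which are snRNAs of the spliceosome, 244 of 269 and 148 of 162 were on the long arm, but of those named 5S_rRNA only 23 of 1901 (1.21%), beside 4.84% of all genes. Symbols of the znf or zfp type marked 136 zinc finger genes there, 40.7% of the 334 in the table, and 2 genes there carried an NLR symbol, against 14 on other chromosomes. A further 702 genes had only a clone name, 234 had no symbol and 59 had another name. Of these 59 named genes, 55 started past 70 Mb, near the end of the arm. Gene models were not sparse, with 32.3 genes per Mb on the long arm and 27.6 per Mb before 30 Mb, or 23.6 and 26 per Mb without small RNA genes. Members were short, with a median exon length of 1041.5 bases against 1792.5 bases before 30 Mb. These medians include small RNA genes, which were 419 of the members and 50 of the genes before 30 Mb. Of the members, 11% shared exon bases with another gene on the same strand, against 4.71% before 30 Mb. Fragments that matched several places or several genes had not been counted, so members with near-identical copies were measured only through their unique stretches and are uncertain.

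Many members gave no fragment. On the long arm, 425 genes (27.4%) had no count in any of the 32 libraries, against 12.9% before 30 Mb and 10.6% on other chromosomes. Of the 392 U1 and U6 genes, 338 were among these 425, so that U1 and U6 genes made up most of them. The libraries held poly(A) RNA, and the shares without a count were not compared between regions outside the small RNA genes. The low-count filter left 747 members in the untreated libraries, 753 in the BIO libraries and 793 in all libraries together, and 759 members entered no test. Those tested were expressed at low levels. Their median was 0.408 CPM per kb of exon (CPM, a gene's counted fragments scaled to the library total), against 3.37 CPM per kb before 30 Mb and 3.32 CPM per kb on other chromosomes. Within the arm the median per kb was 0.839 CPM for zinc finger genes, 1.32 CPM for named genes, 0.269 CPM for genes with a clone name only and 0.428 CPM for unnamed genes. Of the genes around the boundary, si:rp71-7l19.2 and ENSDARG00000117382 started just past 30 Mb, at 30045493 and 30104535, and the zinc finger genes znf1111 and znf1128 just before it, at 29909870 and 29967255. Their means over the 4 untreated wild type pools were 0.319 ± 0.11 CPM for si:rp71-7l19.2 and 0.0622 ± 0.027 CPM for ENSDARG00000117382, and 1.16 ± 0.22 CPM for znf1111 and 1.45 ± 0.23 CPM for znf1128 (SD, n = 4).

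A few genes at the distal end made up much of the signal. Per kb of exon the highest member was ENSDARG00000115988 at 872 CPM per kb, followed by CCT2 at 416, ENSDARG00000115978 at 393, a second row named cct2 at 379, ckap4 at 267, a 5_8S_rRNA gene at 45.1, terfa at 32.1 and NUP50 at 23.9 CPM per kb. CCT2 encodes a subunit of the cytosolic chaperonin, ckap4 an endoplasmic reticulum membrane protein, terfa a telomere-binding protein and NUP50 a nuclear pore protein. The 2 CCT2 rows, at chromosome 4, 78022547 to 78026285 and chromosome 4, 78008298 to 78009682, carry the same name, so that their separate values are uncertain. ENSDARG00000115988 and ENSDARG00000115978 flank the 5_8S_rRNA gene at chromosome 4, 77560655 to 77560810, and both varied widely within groups. For example, ENSDARG00000115988 was at 61.7, 30, 132 and 254 CPM in the untreated stag2b-/- pools and at 286, 158, 243 and 119 CPM in the untreated wild type pools. The untreated pools of these 2 genotypes overlapped, and no comparison called either gene. Ranked by mean CPM and not per kb, the highest 8 members included ikbip in place of the 5_8S_rRNA gene. They supplied 49.8% of the fragments of the arm.

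The libraries held 32464614 to 115057368 counted fragments (median 52391330). The targeted transcript differed between genotypes as labelled for rad21. It was at 43.9 to 64.7 CPM in the untreated rad21-/- pools, 331 to 395 CPM in the rad21+/- pools and 708 to 867 CPM in the wild type pools. For stag2b the names in the table gave no check, because 2 genes are named STAG2 and neither is identified as stag2b. The tailbud markers in the table were detected in every group, except that 1 of 8 had no count in the BIO-treated stag2b-/- pools. Their summed CPM differed between groups. It was 1014 to 1318 CPM in untreated rad21-/- and 1619 to 2204 CPM in untreated wild type pools, and the other 2 untreated mutants overlapped wild type. With BIO it was 1416 to 1505 CPM in rad21-/-, 1615 to 1991 CPM in rad21+/-, 1651 to 1736 CPM in stag2b-/- and 2074 to 2209 CPM in wild type pools. Markers of other tissues also differed between some groups. Skin markers (5 of 5 in the table) summed to 19418 to 28675 CPM in the BIO-treated rad21-/- pools and 29820 to 40329 CPM in the untreated ones. They were also lower with BIO in stag2b-/- (23607 to 28608 against 35482 to 45562 CPM) and in wild type pools (15160 to 21950 against 23389 to 50597 CPM). In rad21+/- the treatments overlapped (24093 to 26036 with BIO and 25775 to 37356 CPM without). Yolk and liver markers (4 of 4) summed to 417 to 642 CPM in the untreated rad21-/- pools and 39.8 to 554 CPM in the untreated wild type pools, which overlap. Untreated rad21+/- pools (557 to 701 CPM) lay above wild type. With BIO the rad21-/- (343 to 584 CPM) and rad21+/- pools (388 to 489 CPM) lay above wild type (62 to 203 CPM). Untreated muscle markers (3 of 6) summed to 195 to 286 CPM in rad21-/- and 64.7 to 161 CPM in wild type. Those of rad21+/- (124 to 263 CPM) overlapped wild type. Blood and endothelium markers (4 of 7) summed to 74.3 to 95.6 CPM in untreated rad21-/-, 85.4 to 107.7 CPM in untreated rad21+/- and 139.6 to 189.6 CPM in untreated wild type. With BIO they summed to 79.6 to 123 CPM in rad21-/-, 111 to 168 CPM in rad21+/-, 105 to 126 CPM in stag2b-/- and 157 to 204 CPM in wild type. Germ cell and egg markers (6 of 6) summed to 8.09 to 10.7 CPM in untreated rad21+/- and 5.02 to 7.65 CPM in untreated wild type. The part of these markers in the results was not tested. In pooled tissue, fewer cells of a type and less RNA per cell cannot be told apart.

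The arm as a whole took a small share of the fragments, with group means from 0.295% to 0.356%. The share was 0.317% ± 0.0039 in BIO-treated rad21-/-, 0.321% ± 0.025 in BIO-treated rad21+/-, 0.356% ± 0.011 in BIO-treated stag2b-/- and 0.339% ± 0.026 in BIO-treated wild type pools (SD, n = 4 each). In untreated pools it was 0.323% ± 0.030 in rad21-/-, 0.311% ± 0.017 in rad21+/-, 0.295% ± 0.058 in stag2b-/- and 0.353% ± 0.023 in wild type (SD, n = 4 each). The tested members without the 8 highest by mean CPM were also summed. With BIO these sums were 1684 ± 65 CPM in rad21-/-, 1710 ± 105 in rad21+/-, 1774 ± 60 in stag2b-/- and 1718 ± 74 in wild type. Untreated, they were 1551 ± 115, 1576 ± 41, 1480 ± 225 and 1618 ± 39 CPM (SD, n = 4 each). In rad21-/- and wild type the mean share was thus lower with BIO, but the mean sum was higher. One library stood apart by the share of fragments. Untreated stag2b-/- replicate 4 had 0.382% of its fragments on the arm, against 0.262%, 0.262% and 0.274% in the other 3 pools of its group. Those 3 pools lay below every untreated wild type pool (0.329% to 0.385%) and every BIO-treated stag2b-/- pool (0.342% to 0.368%). The median over the 793 tested members of the deviation from each gene's median was also highest in replicate 4 within its group. It was 0.18 on the log2 scale in replicate 4 and between -0.26 and -0.10 in the other 3. For untreated stag2b-/- against wild type, the count of calls and the median log2 fold change are therefore also given without replicate 4. So are the calls of the genes that rose, and the count and median of the stag2b-/- response to BIO. Other stag2b-/- values, among them those of the genes that fell and of the interaction, include replicate 4, apart from ranges over left-out libraries.

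**Figure D1:**
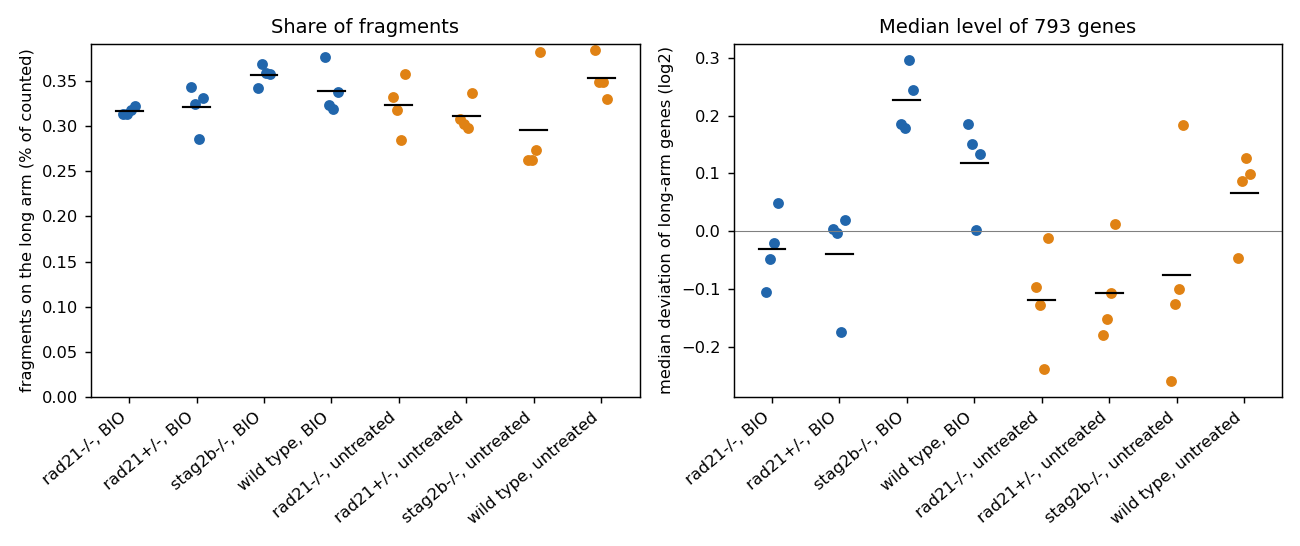
The left panel plots the percentage of counted fragments on the long arm in each library, from a baseline of 0, and the right panel the median over 793 genes of the deviation of log2 CPM from each gene's median over all libraries. Points are pools of 80 tailbuds, bars are group means, and blue marks BIO and orange untreated. Untreated stag2b-/- replicate 4 sits at 0.382%, above the 0.262% to 0.274% of the other pools of its group.

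To ask how loss or reduction of Rad21 affects this arm, untreated mutants were compared with untreated wild type by edgeR's quasi-likelihood test with a 5% false discovery rate (FDR) over all genes tested. In rad21-/- tailbuds 358 of 747 members passed (47.9%), 148 higher and 210 lower, beside 32.5% of all 20677 genes tested (15.8% higher, 16.7% lower) and 25.8% of the 551 genes before 30 Mb. In rad21+/- tailbuds 327 members passed (43.8%), 141 higher and 186 lower, beside 20.5% of all genes (10.8% higher, 9.75% lower) and 13.6% before 30 Mb. Changes on the arm were large. The median absolute log2 fold change was 0.85 over the members in rad21-/- and 0.85 in rad21+/-, beside 0.35 and 0.28 over all genes tested. Absolute log2 fold changes above 1 were found for 328 members (43.9%) in rad21-/-, beside 18.9% of all genes. The direction was mixed, with the median log2 fold change at -0.27 for rad21-/- and -0.29 for rad21+/- tailbuds, beside -0.02 and -0.01 over all genes. Pools of the 2 groups did not overlap for 345 members in rad21-/- against wild type (46.2%), beside 30.9% of all genes, and for 339 in rad21+/- (45.4%), beside 22.9%.

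Fold changes were larger among weakly expressed genes in every region. Among genes with an average log2 CPM above 2, the median absolute log2 fold change in rad21-/- was 0.51 over 113 members, beside 0.23 over 338 genes before 30 Mb and 0.23 over 11918 genes on other chromosomes. Among genes below a log2 CPM of 0 it was 1.09 over 404 members, beside 0.73 and 0.85. The group above 2 is not at 1 level, since the median log2 CPM there was 2.65 on the arm, 4.84 before 30 Mb and 4.75 on other chromosomes. Between a log2 CPM of 0 and 2, the median biological coefficient of variation in untreated libraries was 0.257 on the arm, 0.263 before 30 Mb and 0.26 on other chromosomes, and above a log2 CPM of 2 it was larger on the arm, at 0.187, than before 30 Mb (0.150) and on other chromosomes (0.151).

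**Figure D2:**
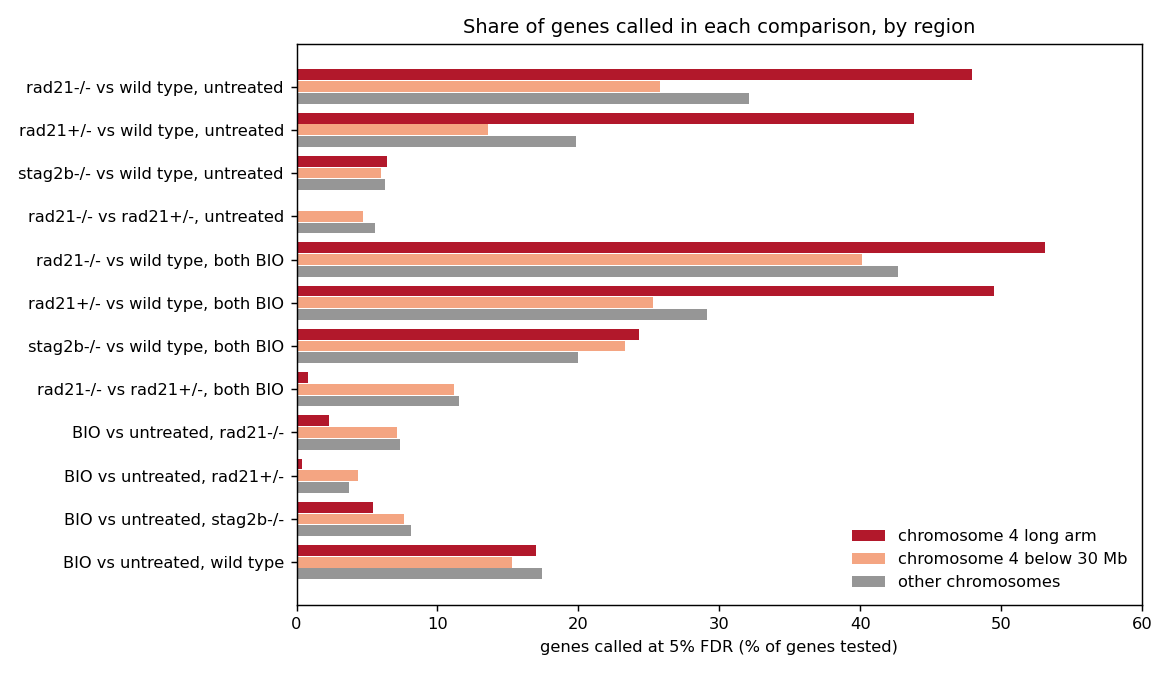
Bars give the percentage of tested genes called at a 5% FDR in each comparison, for genes of the chromosome 4 long arm (dark red), of chromosome 4 before 30 Mb (light red) and of other chromosomes (grey). The arm's bars are the longest in the comparisons of rad21-/- and rad21+/- with wild type, at 43.8% to 53.1%, and the arm has no bar for untreated rad21-/- against rad21+/-, where 0 of its genes were called.

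Among called members whose log2 CPM averaged 0 or more and whose pools did not overlap, the 5 that rose most in both rad21 genotypes had low levels in wild type tailbuds. A ranking by fold change favors genes with low wild type levels, and the separation of the pools was a condition for being named. The unnamed gene ENSDARG00000108525 (chromosome 4, 39742119 to 39747002) was at 5.99, 7.32, 5.14 and 8.19 CPM in rad21-/- pools, 4.73, 3.66, 6.92 and 5.65 CPM in rad21+/- pools and 0, 0.0181, 0 and 0.0232 CPM in wild type pools. Only 3 fragments were counted over the 4 wild type libraries, so that the ratio of rad21-/- to wild type was 606 with a 95% counting interval of 207 to 2939.8. All rad21 pools were far above all wild type pools. For si:cabz01021434.1 (chromosome 4, 73224617 to 73232033, with 850 exon bases shared with another gene) the values were 3.84, 4.35, 2.92 and 4.46 CPM in rad21-/-, 2.36, 2.36, 3.32 and 2.98 CPM in rad21+/- and 0.131, 0.163, 0.0532 and 0.0696 CPM in wild type. Its log2 fold changes, given with the standard error throughout, were 5.28 ± 0.33 (adjusted p = 2.8e-09) in rad21-/- and 4.77 ± 0.33 (adjusted p = 1.3e-08) in rad21+/-. No mutant pool came near a wild type pool. The unnamed ENSDARG00000110454 (chromosome 4, 51151834 to 51159094) was at 4.92, 5.23, 5.72 and 6.5 CPM in rad21-/- and 0.175, 0.254, 0.346 and 0.197 CPM in wild type, with log2 fold changes of 4.5 ± 0.25 (adjusted p = 5.8e-10) in rad21-/- and 4.68 ± 0.25 (adjusted p = 5.3e-10) in rad21+/-. The gene si:dkey-8o9.5 (chromosome 4, 53159800 to 53168673) was at 3.93, 4.48, 4.11 and 6.25 CPM in rad21-/- and 0.436, 0.363, 0.479 and 0.209 CPM in wild type, with a log2 fold change of 3.67 ± 0.30 (adjusted p = 6.5e-08) in rad21-/- and 3.8 ± 0.30 (adjusted p = 6.2e-08) in rad21+/-. The separation of the mutant from the wild type pools was required of both genes by the rule. The last of the 5 was si:ch211-120c15.3, with log2 fold changes of 4.48 ± 0.70 (adjusted p = 0.00014) in rad21-/- and 4.19 ± 0.70 (adjusted p = 0.00038) in rad21+/-.

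Within the same limits of level and overlap, other members were almost lost in the rad21 line. The membrane-spanning 4-domain family gene ms4a17a.8 (chromosome 4, 76637548 to 76655373) was at 0, 0.0367, 0.0622 and 0.0227 CPM in rad21-/-, 0, 0, 0.0217 and 0.0213 CPM in rad21+/- and 2.84, 4.61, 3.4 and 4.22 CPM in wild type pools. In rad21-/- its log2 fold change was -6.82 ± 0.49 (adjusted p = 1.4e-08). With 2 fragments in all over the rad21+/- libraries, the ratio of wild type to rad21+/- was 397 with a 95% counting interval of 109.9 to 3279. The zinc finger gene znf1029 (chromosome 4, 55507920 to 55592720) was at 0, 0.184, 0.124 and 0.273 CPM in rad21-/-, 0.0553, 0.132, 0.282 and 0.213 CPM in rad21+/- and 3.25, 3.43, 1.22 and 3.56 CPM in wild type pools. It fell in both mutants, with log2 fold changes of -4.27 ± 0.62 (adjusted p = 5.6e-05) in rad21-/- and -4.08 ± 0.61 (adjusted p = 0.00012) in rad21+/-. All mutant pools lay below the lowest wild type pool, as the limit of overlap required. For si:dkey-238o14.7 (chromosome 4, 69801372 to 69805221) the rad21-/- pools were at 0, 0.11, 0.124 and 0.0682 CPM and the wild type pools at 5.26, 4.32, 1.92 and 3.43 CPM, with log2 fold changes of -5.54 ± 0.59 (adjusted p = 1.9e-06) in rad21-/- and -5.3 ± 0.57 (adjusted p = 3.6e-06) in rad21+/-. The log2 fold changes of si:dkey-217g21.3 were -3.74 ± 0.41 (adjusted p = 2.4e-06) in rad21-/- and -3.72 ± 0.41 (adjusted p = 3.5e-06) in rad21+/-. The fifth gene by this rule differed between genotypes. It was the clone-named gene ENSDARG00000104968 in rad21-/- (-3.46 ± 0.48, adjusted p = 3.1e-05) and ENSDARG00000095486 in rad21+/- (-3.69 ± 0.31, adjusted p = 1.7e-07), and both genes fell in both genotypes.

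Presence or near absence separated a small number of genes completely. With at most 3 fragments over the wild type libraries and at least 10 in each mutant library, 4 members qualified in rad21-/- (ENSDARG00000108525, si:dkey-193i10.3, si:cabz01021435.4 and ms4a17a.17) and the same 4 in rad21+/-. They were 4 of 25 such genes in the whole table for rad21-/- and 4 of 33 for rad21+/-. In the other direction 5 members had at most 3 fragments in rad21-/- and at least 10 in each wild type library, of 51 such genes in the table. In rad21+/- there were 7 of 44.

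**Figure D3:**
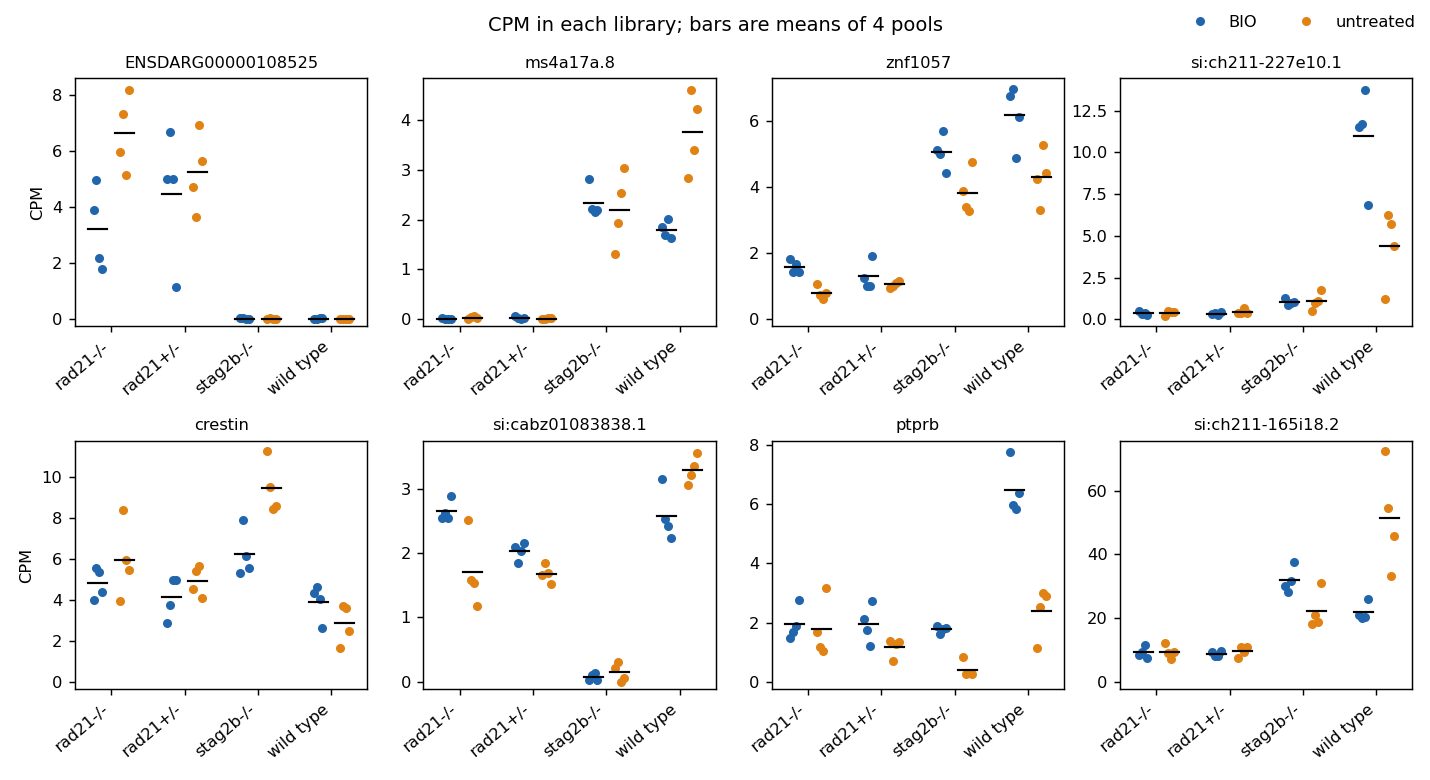
Each panel plots CPM on a linear axis for 1 gene in every library, with rad21-/-, rad21+/-, stag2b-/- and wild type from left to right, BIO in blue beside untreated in orange, and bars at group means (n = 4 pools). ENSDARG00000108525 is near 0 and ms4a17a.8 well above 0 in every stag2b-/- and wild type pool, the reverse of both rad21 genotypes, while si:cabz01083838.1 is near 0 in stag2b-/- alone.

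By gene class, zinc finger genes of the arm rose and fell equally often in rad21-/- tailbuds. Of the 132 tested, 38 rose and 38 fell in rad21-/- tailbuds (57.6%), and 38 rose and 32 fell in rad21+/- tailbuds (53.0%). Of all genes tested, 32.5% passed in rad21-/- and 20.5% in rad21+/-. Among the 184 zinc finger genes tested on other chromosomes, 31 rose and 16 fell in rad21-/- (25.5%), and 28 rose and 14 fell in rad21+/- (22.8%). The median absolute log2 fold change of zinc finger genes in rad21-/- was 0.91 on the arm and 0.26 on other chromosomes. At the ends of the range were znf1029, described above, and znf1052, with a log2 fold change of 3.0 ± 0.32 (adjusted p = 1.6e-06) in rad21-/-. Another zinc finger gene, znf1057 (chromosome 4, 49656481 to 49720964), was at 1.06, 0.734, 0.622 and 0.796 CPM in rad21-/-, 0.958, 1.01, 1.09 and 1.15 CPM in rad21+/- and 4.26, 3.3, 5.25 and 4.42 CPM in wild type pools. It fell, with log2 fold changes of -2.42 ± 0.21 (adjusted p = 1.8e-07) in rad21-/- and -2.03 ± 0.21 (adjusted p = 1.6e-06) in rad21+/-. All mutant pools were below all wild type pools. Of the 451 tested members with a clone name only, 79 rose and 131 fell in rad21-/-, and of the 123 unnamed members 24 rose and 32 fell. That is 46.6% and 45.5% called, beside 34.3% of clone-named and 32.8% of unnamed genes on other chromosomes. Of the 2 tested NLR-named members, 1 was called, as lower in rad21+/-.

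The named genes, which sit mostly near the end of the arm, included 15 of 37 that passed in rad21-/- (40.5%, 7 higher and 8 lower), near the 31.9% of named genes on other chromosomes and the 32.5% of all genes. The telomere-binding gene terfa (chromosome 4, 77973876 to 77996958, 57 exon bases shared) was at 48.8, 45, 47.6 and 55 CPM in rad21-/-, 68, 48.2, 44.8 and 53.1 CPM in rad21+/- and 134, 97.8, 88.9 and 94.6 CPM in wild type pools. It fell in both mutants, with log2 fold changes of -1.07 ± 0.15 (adjusted p = 4.2e-05) in rad21-/- and -0.95 ± 0.15 (adjusted p = 0.00021) in rad21+/-, and its pools did not overlap those of wild type. The aspartic protease gene nots was lower as well (-2.29 ± 0.31, adjusted p = 2.5e-05 in rad21-/-), as was the Hsp70-family gene hspa12a.1 (-3.63 ± 0.83, adjusted p = 0.0029). Levels of hspa12a.1 were low, at 0.567, 0.453, 0.293 and 0.116 CPM in wild type and 0.0217, 0.0367, 0 and 0.0455 CPM in rad21-/- pools. It was not tested between genotypes with BIO. TTLL1, which encodes a tubulin glutamylase, rose in rad21-/- (1.01 ± 0.19, adjusted p = 0.00051) and in rad21+/- (0.74 ± 0.19, adjusted p = 0.0082). NUP50 was at 109, 100.4, 90.4 and 123 CPM in rad21-/-, 131, 105, 115 and 119 CPM in rad21+/- and 156, 127, 132 and 125 CPM in wild type pools, with a log2 fold change of -0.35 ± 0.12 (adjusted p = 0.031) in rad21-/-. In rad21+/- the log2 fold change of NUP50 was -0.2 ± 0.12 (adjusted p = 0.25), which did not pass. Both the chaperonin gene CCT2 (-0.15 ± 0.14) and ckap4 (-0.2 ± 0.23) were not called in rad21-/- (adjusted p = 0.43 and 0.55). Within the ms4a17a cluster of 14 genes, 4 passed the filter. Of these, ms4a17a.17 rose in rad21-/- (adjusted p = 2.5e-06, with at most 3 fragments over the wild type libraries), ms4a17a.8 and ms4a17a.9 (-1.04 ± 0.21, adjusted p = 0.0012) fell, and ms4a17a.11 had a log2 fold change of 0.36 ± 0.43 (adjusted p = 0.55).

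Homozygotes and heterozygotes of rad21 were next compared with each other. These groups differ in the targeted transcript but come from 1 line. On the long arm 0 of 747 members were called, whereas 5.32% of all genes tested (1.47% higher, 3.84% lower) and 4.72% of genes before 30 Mb passed. By the same test 21 members had an unadjusted p under 0.05, beside 3261 of all 20677 genes. DESeq2's Wald test called 2 members. The median absolute log2 difference between the genotypes was 0.19 on the arm and 0.18 over all genes, beside 0.85 for rad21-/- against wild type on the arm. The largest absolute difference was 3.2, and 33 members exceeded 1 (4.42%), beside 6.58% of all genes. The BIO-treated genotypes gave 6 members at a 5% FDR, all higher in rad21-/-, which were 0.797% of 753 beside 11.1% of all genes (4.54% higher, 6.52% lower). They were RAB3IP, which encodes a Rab exchange factor, at a log2 difference of 0.43 ± 0.08 (adjusted p = 0.00068), TTLL1 (0.46 ± 0.13, adjusted p = 0.029), the MHC class II gene mhc2d4b (1.66 ± 0.37, adjusted p = 0.0042), NAA40 (1.68 ± 0.48, adjusted p = 0.025), si:ch211-199m9.3 (0.87 ± 0.24, adjusted p = 0.019) and si:dkey-256e21.1 (1.05 ± 0.33, adjusted p = 0.046). These 6 were named after their values were seen, since they were all the calls. RAB3IP was at 26.9, 25.5, 25.2 and 26.2 CPM in BIO-treated rad21-/- and 18.7, 19.4, 18.9 and 21 CPM in BIO-treated rad21+/- pools, without overlap. NAA40 was weakly expressed, at 0.223, 0.562, 0.328 and 0.0921 CPM in BIO-treated rad21-/- pools. In BIO-treated rad21+/- it was at 0.06, 0.138, 0.0687 and 0.0853 CPM, and the pools overlapped. In untreated rad21-/- the NAA40 values were 4.66, 0.0551, 0.0415 and 0.091 CPM.

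The BIO-treated pools gave a second set of genotype comparisons that shares no library with the untreated one. Among BIO-treated pools 400 of 753 members passed in rad21-/- (53.1%, 161 higher and 239 lower), beside 43.0% of all genes (21.7% higher, 21.3% lower), and 373 in rad21+/- (49.5%, 152 higher and 221 lower), beside 29.8% (15.4% higher, 14.4% lower). Of the 727 members tested in both sets, 352 passed in the untreated and 388 in the BIO-treated rad21-/- comparison, and 277 passed in both, which is 78.7% of the untreated and 71.4% of the BIO-treated calls. All 277 changed in the same direction, 124 higher and 153 lower. Over all genes tested, 4982 passed in both sets, which is 75.4% of the untreated and 57.3% of the BIO-treated calls, and 20 of them had opposite directions. In rad21+/- 248 members passed in both sets, all in the same direction, which is 77.3% of the untreated and 68.5% of the BIO-treated calls. Over all genes the rad21+/- shares were 65.8% and 45.6%, and 14 of the 2737 genes that passed in both sets had opposite directions. Across the 727 genes, which are not independent replicates, the log2 fold changes of the 2 sets were correlated. Pearson r was 0.89 in rad21-/- and 0.89 in rad21+/-, beside 0.85 and 0.83 over all genes tested in both sets. ENSDARG00000108525 was again at 3.91, 4.97, 2.17 and 1.8 CPM in rad21-/- and 0, 0, 0.0302 and 0.0339 CPM in wild type with BIO, and ms4a17a.8 at 0.0186, 0.0122, 0 and 0 CPM in rad21-/- and 1.85, 1.69, 2.02 and 1.63 CPM in wild type. Both kept their complete separation.

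**Figure D4:**
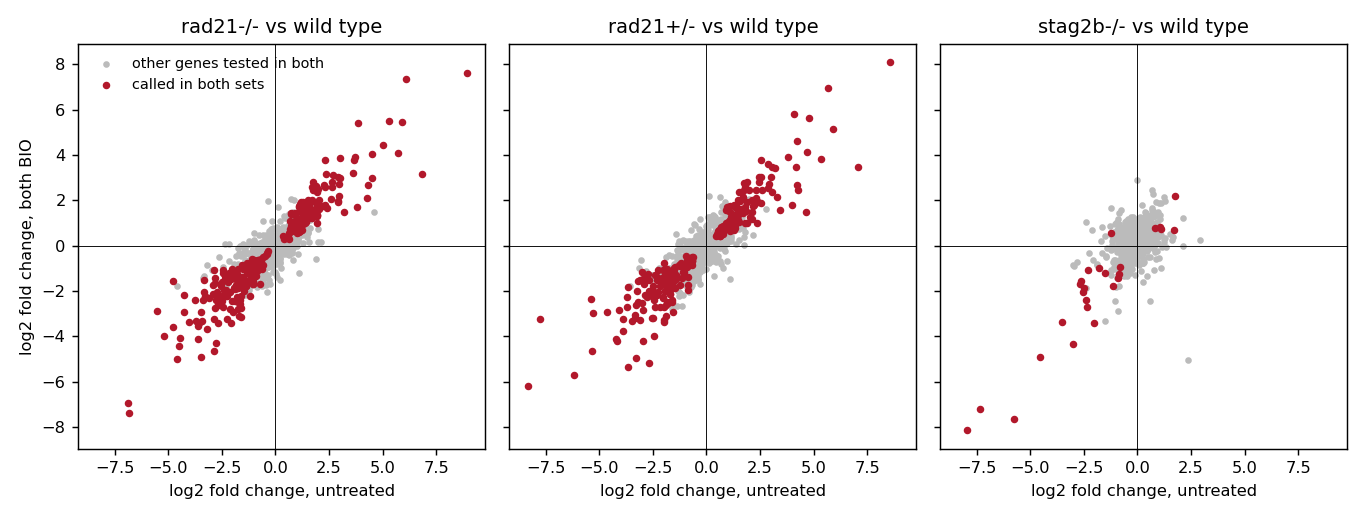
Each point is 1 of the 727 long-arm genes tested in both sets, with the log2 fold change against wild type in untreated pools on the x axis and in BIO-treated pools on the y axis, for rad21-/-, rad21+/- and stag2b-/- from left to right. Red points passed a 5% FDR in both sets. The 277 red points of rad21-/- and the 248 of rad21+/- all lie where both values have the same sign, and stag2b-/- has 26 red points, 1 of them elsewhere.

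Called genes were spread along the arm. In 10-Mb windows of untreated rad21-/- against wild type, 45.0% of 120 genes passed between 30 and 40 Mb, 54.2% of 142 between 40 and 50 Mb, 57.6% of 139 between 50 and 60 Mb, 47.8% of 136 between 60 and 70 Mb and 39.0% of 210 from 70 Mb to the end. The 3 windows before 30 Mb had 19.2%, 33.7% and 25.2%. The window with the most uneven directions was 40 to 50 Mb, with 25 genes higher and 52 lower and a median log2 fold change of -0.62. Among the 5 windows of the arm, fold changes were smallest in the last, where the median absolute log2 fold change was 0.57, against 0.81 to 1.08 in the other 4. That window also holds most of the named genes. In rad21+/- 40.8%, 50%, 53.2%, 45.6% and 33.8% of the genes in the same 5 windows passed, beside 20.5% of all genes and 7.69%, 18.3% and 17.4% in the 3 windows before 30 Mb.

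**Figure D5:**
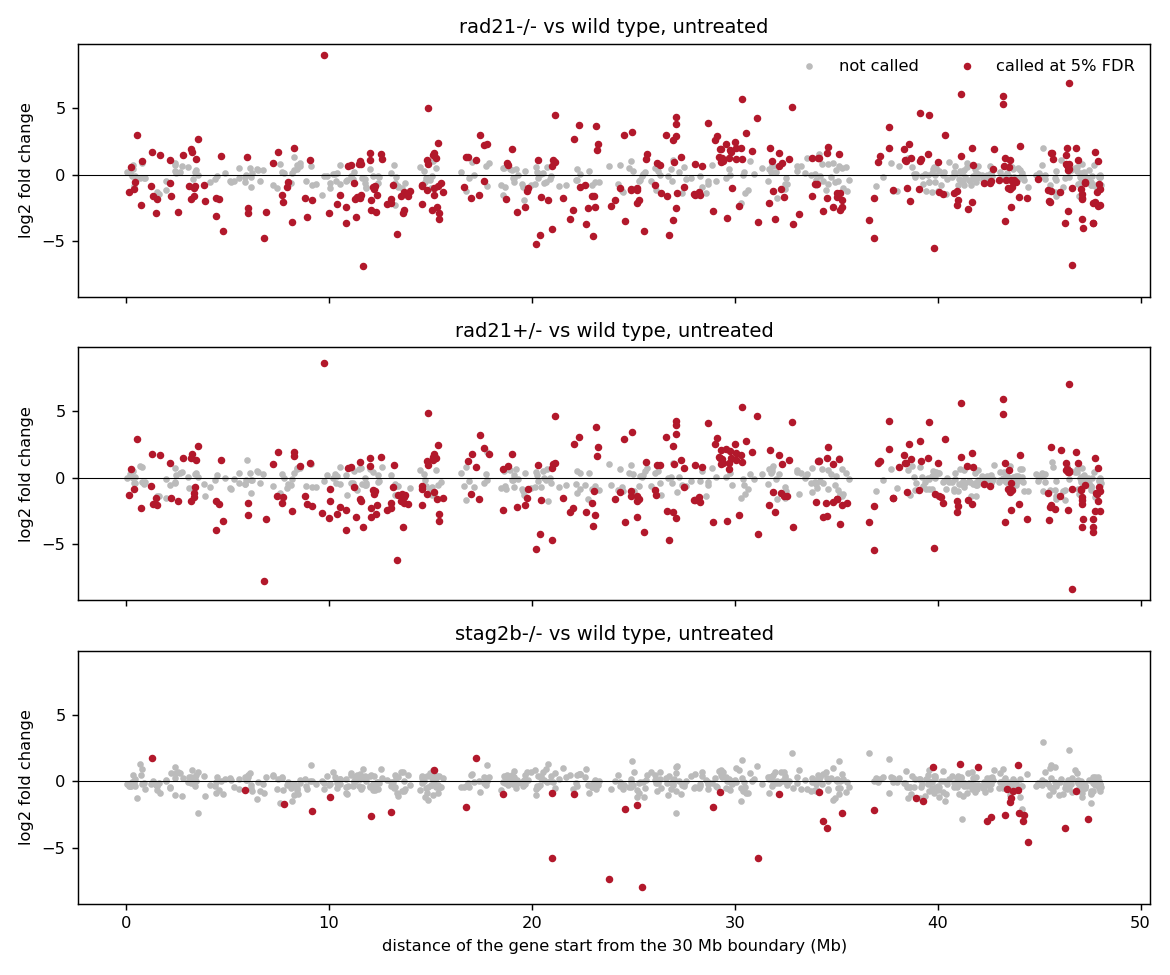
Log2 fold change against wild type in untreated pools (y axis) is plotted for the 747 tested genes against the distance of the gene start from the 30 Mb boundary in Mb (x axis), with rad21-/- at the top, rad21+/- in the middle and stag2b-/- at the bottom. Red points passed a 5% FDR. Red points run along the whole arm in both rad21 panels, 358 and 327 in all, and there are 48 in stag2b-/-.

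Among untreated pools of the stag2b line, members were called about as often as all genes. In untreated stag2b-/- tailbuds 48 of 747 members passed (6.43%), beside 6.29% of all genes tested (2.41% higher, 3.88% lower), and 41 of the 48 were lower. Without stag2b-/- replicate 4 there were 46, of which 43 were lower, and without replicate 2 of every group there were 20. The median log2 fold change of the members was -0.15, or -0.24 without that replicate, beside -0.01 over all genes. Over all levels together, fold changes were larger on the arm, with a median absolute log2 fold change of 0.37, beside 0.21 over all genes. Split by level this did not hold among the weakest genes. Below a log2 CPM of 0, which held 404 of the 747 members, the median was 0.42 on the arm and 0.54 on other chromosomes. Absolute log2 fold changes above 1 were found for 91 members (12.2%), beside 8.63% of all genes. Between a log2 CPM of 0 and 2 the median absolute value was 0.36 on the arm and 0.35 on other chromosomes. Above a log2 CPM of 2 it was 0.32 and 0.14. Among calls whose log2 CPM averaged 0 or more and whose pools did not overlap, the strongest loss was that of si:cabz01083838.1 (chromosome 4, 74445535 to 74466703), which was at 0.22, 0.309, 0 and 0.0606 CPM in stag2b-/- and 3.05, 3.21, 3.35 and 3.56 CPM in wild type pools. Its log2 fold change was -4.55 ± 0.50 (adjusted p = 1.9e-05). In both rad21 genotypes it was intermediate, at 2.52, 1.58, 1.53 and 1.18 CPM in rad21-/- and 1.66, 1.84, 1.69 and 1.51 CPM in rad21+/- pools, all below the wild type pools, and neither genotype passed against wild type. The gene si:cabz01021426.2 (chromosome 4, 73335421 to 73372362, 372 exon bases shared) went the opposite way in the mutants. It was at 1.34, 0.67, 0.756 and 0.889 CPM in stag2b-/-, 10.7, 11.7, 13.3 and 16.4 CPM in rad21-/- and 5.26, 7.16, 5.68 and 3.61 CPM in wild type pools. It fell in stag2b-/- (-2.56 ± 0.24, adjusted p = 3e-06) and rose in rad21-/- (1.27 ± 0.22, adjusted p = 0.00024) and rad21+/- (1.14 ± 0.22, adjusted p = 0.00098), with no overlap of pools in any of the 3. A receptor tyrosine phosphatase gene of endothelium, ptprb (chromosome 4, 74271067 to 74367912), was at 0.825, 0.258, 0.309 and 0.283 CPM in stag2b-/- and 1.16, 2.54, 2.99 and 2.9 CPM in wild type pools, with a log2 fold change of -2.51 ± 0.44 (adjusted p = 0.0018). The blood and endothelium markers (4 of 7 in the table) summed to 122 to 159 CPM in untreated stag2b-/- and 139.6 to 189.6 CPM in untreated wild type pools, and their part in this difference was not tested. ENSDARG00000105756 (-3.0 ± 0.37, adjusted p = 7.2e-05) and znf1039 (-1.78 ± 0.38, adjusted p = 0.0081) completed the 5 lowest.

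By the same rule 4 members rose in stag2b-/-. The largest rise within these limits was that of crestin (chromosome 4, 47257854 to 47262290), a repeat-derived transcript used as a pan-neural crest marker in zebrafish, at 11.2, 9.51, 8.43 and 8.59 CPM in stag2b-/- and 1.64, 3.68, 3.62 and 2.48 CPM in wild type pools. Its log2 fold change was 1.71 ± 0.25 (adjusted p = 0.00036) in stag2b-/-, 1.06 ± 0.25 (adjusted p = 0.003) in rad21-/- and 0.78 ± 0.24 (adjusted p = 0.03) in rad21+/-. Every mutant pool was above every wild type pool in all 3 genotypes. The finTRIM gene ftr64 (chromosome 4, 71973211 to 71983381) was at 1.85, 2.19, 2.25 and 3.17 CPM in stag2b-/- and 0.982, 1.16, 1.21 and 1.01 CPM in wild type pools (1.1 ± 0.26, adjusted p = 0.015). The zinc finger gene znf1142 was at 2.9, 3.09, 3.45 and 5.01 CPM in stag2b-/-, 0.998, 1.12, 0.933 and 0.841 CPM in rad21-/- and 1.4, 1.49, 2.39 and 2.68 CPM in wild type pools. It rose in stag2b-/- (0.84 ± 0.24, adjusted p = 0.045) and fell in rad21-/- (-1.03 ± 0.25, adjusted p = 0.0045). The fourth gene was si:cabz01069016.2 (1.24 ± 0.27, adjusted p = 0.0099). Without stag2b-/- replicate 4, the calls of ftr64 (adjusted p = 0.059) and znf1142 (adjusted p = 0.17) were lost, and those of crestin and si:cabz01069016.2 held.

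With BIO, 183 of 753 members passed between stag2b-/- and wild type (24.3%, 100 higher and 83 lower), beside 20.2% of all genes (10.1% higher, 10.2% lower). The median absolute log2 fold change was 0.46 over the members, beside 0.22 over all genes. Below a log2 CPM of 0 it was 0.564 on the arm and 0.514 on other chromosomes. Between 0 and 2 it was 0.432 and 0.325, and above 2 it was 0.212 and 0.151. Of the 46 members called among untreated pools and tested in both sets, 26 passed again with BIO, 25 in the same direction. They were 56.5% of the untreated and 14.5% of the BIO-treated calls, and over all genes the shares were 57.3% and 17.8%. The member that changed direction was si:ch211-165i18.2, whose values are given with the interactions. The values of si:cabz01083838.1 with BIO were 0.0321, 0.103, 0.139 and 0.0241 CPM in stag2b-/- and 3.15, 2.53, 2.41 and 2.23 CPM in wild type (-4.9 ± 0.28, adjusted p = 4.1e-10).

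To see how Wnt activation acts on the arm, BIO-treated pools were compared with untreated pools of the same genotype in 1 fit to all 32 libraries. In wild type tailbuds 135 of 793 members passed (17%), 90 higher and 45 lower, beside 17.3% of all 21385 genes (7.58% higher, 9.76% lower). Without replicate 2 of every group 46 members passed, and without replicate 4 of every group 69. On other chromosomes 1500 genes were higher and 1986 lower. The zinc finger genes of the arm were mostly on the higher side, with 26 higher and 2 lower of 134 and a median log2 fold change of 0.28, beside 19 higher and 7 lower of 186 and a median of 0.08 for zinc finger genes on other chromosomes. Among calls whose log2 CPM averaged 0 or more and whose pools did not overlap, limits that hold for all genes ranked by their response to BIO here, the largest rises were those of si:dkey-57c22.1 (1.49 ± 0.34, adjusted p = 0.0026) and si:dkey-30f3.2. For si:dkey-30f3.2 the pools were at 6.7, 6.93, 4.44 and 5.1 CPM with BIO and 1.53, 1.63, 3.98 and 1.17 CPM without (1.48 ± 0.29, adjusted p = 0.00061). The largest falls within these limits were those of si:dkey-238o14.7 (-2.02 ± 0.58, adjusted p = 0.016) and si:dkey-237g15.5, which was at 0.276, 0.158, 0.272 and 0.186 CPM with BIO and 0.48, 0.562, 0.372 and 0.8 CPM without (-1.33 ± 0.30, adjusted p = 0.0022). Among the strongly expressed members ckap4 fell, at 348, 338, 366 and 448 CPM with BIO and 1099, 744, 453 and 561 CPM without (-0.93 ± 0.19, adjusted p = 0.0012). The pools of ckap4 did not overlap, and for the other genes named here this was a limit of the choice.

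The rad21 genotypes had few calls on the arm. In rad21-/- tailbuds 18 members passed (2.27%, 13 higher and 5 lower), beside 7.16% of all genes (2.1% higher, 5.06% lower), and in rad21+/- tailbuds 3 members, all higher (0.378%), beside 3.62% (1.31% higher, 2.31% lower). In rad21-/- the largest rises within the same limits of level and overlap were those of si:ch73-56d11.5 (1.08 ± 0.32, adjusted p = 0.036) and znf1057, at 1.82, 1.42, 1.66 and 1.43 CPM with BIO and 1.06, 0.734, 0.622 and 0.796 CPM without (0.98 ± 0.20, adjusted p = 0.0028). The largest falls within them were those of CPNE8 (-0.81 ± 0.23, adjusted p = 0.027), which encodes a calcium-dependent phospholipid-binding copine, and si:dkey-23a17.1 (-0.77 ± 0.23, adjusted p = 0.041). In rad21+/- NUP50 rose, at 151, 160.2, 136 and 158 CPM with BIO and 131, 105, 115 and 119 CPM without (0.37 ± 0.10, adjusted p = 0.034), as did si:dkey-16p19.5, at 19.2, 15.4, 13.8 and 14.7 CPM with BIO and 10.1, 11, 12.7 and 12.1 CPM without (0.46 ± 0.12, adjusted p = 0.038). The remaining gene was the clone-named ENSDARG00000099355 (1.54 ± 0.39, adjusted p = 0.025), named because it completed the 3. Without replicate 2 of every group, 0 members passed in either rad21 genotype. Split by level, the gap to other chromosomes in rad21-/- was small among the weakest genes. Below a log2 CPM of 0, which held 446 members, 1.12% passed on the arm and 1.26% on other chromosomes. Between 0 and 2 the shares were 3.12% and 4.76%, and above 2 they were 4.88% and 10.6%. In rad21+/- the shares at these 3 levels were 0.224% and 0.54%, 0% and 2.41%, and 1.63% and 5.43%. Whether the genotypes responded differently was tested separately by the interaction.

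In stag2b-/- tailbuds all 43 members that passed were higher with BIO (5.42%), beside 7.99% of all genes, of which 3.26% were higher and 4.72% lower. Most members were on the higher side, with 648 of 793 log2 fold changes positive and a median of 0.29, beside a median of -0.01 over all genes. The median was 0.14 for rad21-/-, 0.12 for rad21+/- and 0.08 for wild type tailbuds. Without the untreated stag2b-/- replicate 4, the library that stood apart, 57 members passed (56 higher) and the median was 0.39. Leaving out other single pools lowered the count, to 26 without untreated replicate 1, 18 without untreated replicate 2, 20 without BIO-treated replicate 1 and 19 without BIO-treated replicate 3, and without replicate 2 of every group it was 5. Within the limits of level and overlap, the largest rise was that of ptprb, at 1.89, 1.62, 1.78 and 1.81 CPM with BIO and 0.825, 0.258, 0.309 and 0.283 CPM without in stag2b-/- (2.05 ± 0.37, adjusted p = 0.00098). In wild type it was at 7.76, 5.98, 5.85 and 6.36 CPM with BIO and 1.16, 2.54, 2.99 and 2.9 CPM without (1.43 ± 0.32, adjusted p = 0.0021). Both genotypes rose without overlap, and the BIO-treated stag2b-/- pools stayed within the range of untreated wild type. Next was si:cabz01054394.7, with a log2 fold change of 1.95 ± 0.48 (adjusted p = 0.012). The stag2b-/- value of si:cabz01021426.2 was 2.15, 2.74, 2.47 and 2.19 CPM with BIO (1.38 ± 0.22, adjusted p = 0.00031).

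Whether the genotypes responded differently to BIO was tested by the interaction of genotype and treatment, as the log2 response of the mutant minus that of wild type. It called 6 members in rad21-/- (0.757%, 3 higher and 3 lower), 6 in rad21+/- (0.757%, 3 higher and 3 lower) and 14 in stag2b-/- (1.77%, 12 higher and 2 lower), beside 0.874% (0.393% higher, 0.482% lower), 0.912% (0.426% and 0.486%) and 1.34% (0.711% and 0.631%) of all genes. All 3 interactions use the same wild type pools. Leaving out single pools moved the stag2b-/- count to 9 without BIO-treated wild type replicate 2, 24 without untreated wild type replicate 3, 8 without BIO-treated wild type replicate 3, 8 without BIO-treated stag2b-/- replicate 3 and 5 without BIO-treated stag2b-/- replicate 4. Without replicate 2 of every group the 3 interactions called 0, 0 and 1 members. The gene si:ch211-165i18.2 (chromosome 4, 73606482 to 73612754) was called in all 3. In wild type it was at 21.2, 20.2, 20.3 and 26 CPM with BIO and 72.3, 54.7, 33.2 and 45.8 CPM without, and all pools with BIO lay below all pools without (-1.23 ± 0.19, adjusted p = 4.3e-05). In stag2b-/- it was at 30.1, 28.2, 31.8 and 37.6 CPM with BIO and 18.1, 21.1, 18.9 and 30.9 CPM without, and in rad21-/- at 8.37, 9.52, 11.6 and 7.46 CPM with BIO and 12.1, 9.18, 7.28 and 9.42 CPM without. The pools of both mutants overlapped between treatments. In stag2b-/- the overlap came from untreated replicate 4 alone (30.9 CPM), the library that stood apart by its share of fragments. The other untreated stag2b-/- pools lay below every stag2b-/- pool with BIO. The differences in response from wild type were 1.75 ± 0.27 (adjusted p = 0.00056) in stag2b-/-, 1.2 ± 0.27 (adjusted p = 0.023) in rad21-/- and 1.1 ± 0.27 (adjusted p = 0.042) in rad21+/-. In untreated pools this gene was lower than wild type in stag2b-/- (-1.22 ± 0.22, adjusted p = 0.0027), and with BIO it was higher (0.54 ± 0.13, adjusted p = 0.0042).

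Other members differed in response between wild type and 1 or more mutants. ENSDARG00000105756 (chromosome 4, 72430431 to 72431296) fell with BIO in wild type, at 0.373, 0.281, 0.241 and 0.339 CPM with BIO and 1.51, 1.52, 0.918 and 1.44 CPM without (-2.09 ± 0.30, adjusted p = 1.5e-05). In rad21-/- its values were 0.912, 1.01, 1.22 and 1.84 CPM with BIO and 0.889, 0.881, 1.27 and 1.21 CPM without. The response differed from wild type by 2.32 ± 0.41 (adjusted p = 0.0028) in rad21-/-, 2.06 ± 0.41 (adjusted p = 0.0097) in rad21+/- and 2.13 ± 0.49 (adjusted p = 0.023) in stag2b-/-. ENSDARG00000112831 was the opposite, rising in wild type (1.14 ± 0.18, adjusted p = 4.1e-05) with differences in response of -1.0 ± 0.25 (adjusted p = 0.041) in rad21-/- and -0.99 ± 0.25 (adjusted p = 0.046) in rad21+/-. The gene si:ch211-271g18.1 was at 1.92, 1.77, 1.71 and 1.57 CPM with BIO and 0.789, 1.06, 1.17 and 1.17 CPM without in stag2b-/-, and at 1.31, 1.25, 1.33 and 2.18 CPM with BIO and 4.82, 3.75, 2.01 and 3.18 CPM without in wild type. The stag2b-/- pools with BIO all lay above those without, while the wild type pools overlapped, and the difference in response was 1.9 ± 0.34 (adjusted p = 0.0019). In rad21+/- the difference was -1.11 ± 0.28 (adjusted p = 0.046) for ms4a17a.9, and in rad21-/- it was -1.17 ± 0.27 (adjusted p = 0.023) for si:cabz01021426.2. ENSDARG00000095486 also differed in stag2b-/- (1.59 ± 0.37, adjusted p = 0.026).

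Finally, 13 of 24 listed genes for heterochromatin factors were found by name in the table, none of them on the arm. In rad21-/- tailbuds 2 of 13 rose and 7 fell against wild type (median log2 fold change -0.32). Those that fell were DNMT1, UHRF1 and HELLS, which maintain DNA methylation, and CBX5, setdb1a, SMCHD1 and ehmt1a. Those that rose were kdm4aa and atf7ip. Of all genes tested 15.8% rose and 16.7% fell in that comparison. In rad21+/- tailbuds 2 rose (atf7ip and cbx3b) and 2 fell (SMCHD1 and ehmt1a, median over the 13 genes -0.07), beside 10.8% and 9.75% of all genes. With BIO, 2 rose and 6 fell in rad21-/- (median -0.28), beside 21.7% and 21.3% of all genes, and 2 rose and 5 fell in rad21+/- (median -0.21), beside 15.4% and 14.4%. In stag2b-/- tailbuds 0 rose and 1 fell (UHRF1) with BIO, beside 10.1% and 10.2% of all genes. Without BIO 0 of 13 were called, beside 6.29% of all genes. The median log2 fold change in stag2b-/- was 0.01 with BIO and -0.04 without.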

How the data were processed

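RNA was sequenced from 32 libraries, 4 for each combination of 4 genotypes and 2 treatments, each library from 1 pool of 80 tailbuds. Per the labels and the study's methods, poly(A) RNA was made into stranded paired-end libraries, and reads were trimmed with cutadapt and aligned to GRCz11 with HISAT2. The deposited values are raw counts, which the authors made with featureCounts 1.5.3 as fragments per gene over the exons of Ensembl 98. Fragments that matched several places or several genes were not counted. Gene names came from a table of Ensembl IDs and symbols, which matched 28988 of 32057 IDs, and no sequence is shown because no sequence was available to read.

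Genes were filtered with filterByExpr, scaled by TMM and tested with edgeR 4.0.16 in R 4.3.3 (robust quasi-likelihood F-test, Benjamini-Hochberg adjustment over all genes tested, 5% FDR). One fit held the 16 untreated libraries, another the 16 BIO libraries, and a further one all 32 for responses to BIO and interactions. A log2 fold change is given with a standard error, which was derived from the test and not estimated by the fit. It is the absolute log2 fold change divided by the square root of the F statistic. CPM values used the TMM library sizes of that last fit. The study's processing notes name DESeq2, so DESeq2 1.42.0 was run as an alternative, beside RLE scaling, no filter, a replicate block, other sets of libraries, other arm boundaries and leaving out libraries. The test was checked on simulated data. No pair of replicates agreed within sampling noise (chi-square per gene 7.15 to 152). Deviations of same-numbered libraries were correlated above 0.1 in all 4 pairs only for rad21-/- against rad21+/-, both with BIO (0.11 to 0.38). Other comparisons came close to this limit, with a lowest correlation of 0.097 for rad21-/- against wild type with BIO. These are patterns in the data and not from the labels. Counting intervals are exact and cover counting error only.

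Genes named in the text were, on the arm, the 8 highest in CPM per kb of exon and, among calls whose pools did not overlap and whose log2 CPM averaged 0 or more, the 5 highest and 5 lowest log2 fold changes in each untreated comparison with wild type. To these were added 2 and 2 for each response to BIO, up to 2 and 2 for each interaction, and 2 on each side of the boundary. Others were named after their values were seen. The members, the gene lists and these rules were chosen with earlier results of these data known. Classes were assigned by symbol, because protein sequences were not used here.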

Additional observations from a re-analysis of the deposited data

Results flagged for a closer look

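In 16 of 264 groups of 4 pools examined, 1 pool lay apart from the other 3 by Dixon's criterion, which chance gives in about 1 in 20 groups. Over the whole arm these were untreated stag2b-/- replicate 4, with 0.382% of its fragments on the arm, and 1 BIO-treated rad21+/- pool, in which the median deviation of the members was -0.175 on the log2 scale. Among single genes in mutant pools, the pool apart had 361 CPM of ENSDARG00000115988 and 2.82 CPM of ms4a17a.8 in BIO-treated stag2b-/-, 0.825 CPM of ptprb in untreated stag2b-/-, and, in untreated rad21+/-, 7.07 CPM of si:dkey-8o9.5, 0.651 CPM of ENSDARG00000104968, 0.717 CPM of ptprb and 2.8 CPM of si:ch211-271g18.1. In BIO-treated wild type it had 88.3 CPM of terfa, 0.829 CPM of ENSDARG00000110454, 26 CPM of si:ch211-165i18.2 and 2.18 CPM of si:ch211-271g18.1. In untreated wild type it had 1.22 CPM of znf1029, 3.98 CPM of si:dkey-30f3.2 and 0.918 CPM of ENSDARG00000105756.

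The response to BIO differed from that of wild type by a test of the interaction (edgeR, 5% FDR) for named genes as follows, in log2 units as mutant minus wild type. In rad21-/- the difference was 1.2 for si:ch211-165i18.2, 2.32 for ENSDARG00000105756, -1.0 for ENSDARG00000112831 and -1.17 for si:cabz01021426.2. In rad21+/- it was 1.1 for si:ch211-165i18.2, 2.06 for ENSDARG00000105756, -0.99 for ENSDARG00000112831 and -1.11 for ms4a17a.9. In stag2b-/- it was 1.75 for si:ch211-165i18.2, 2.13 for ENSDARG00000105756, 1.90 for si:ch211-271g18.1 and 1.59 for ENSDARG00000095486. The 3 tests share their wild type pools.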

How the results depend on the processing

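The counts of called members for both rad21 genotypes against wild type stayed within 1.5 times of those reported under every alternative run. With untreated stag2b-/- against wild type, 48 calls became 90 in the fit to all 32 libraries and 24 in a fit to the 8 libraries compared. For rad21-/- against rad21+/-, 0 untreated calls became 2 with DESeq2, 1 in the fit to all libraries and 3 with the boundary at 25 Mb, and 6 BIO calls became 2 in the fit to all libraries and 12 with the boundary at 25 Mb. For responses to BIO, 18 calls in rad21-/- became 9 without the low-count filter, 3 in rad21+/- became 5 with the boundary at 25 Mb and 43 in stag2b-/- became 67 with DESeq2. The interactions had 16, 17 and 25 calls with DESeq2 in rad21-/-, rad21+/- and stag2b-/-, against 6, 6 and 14, and rad21+/- had 2 without the filter. The causes were not tested. Leaving out single libraries in the BIO comparisons, and members with shared exon bases, was chosen after seeing the data.

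Adding the replicate number as a block gave 369 calls in untreated rad21-/- and 342 in rad21+/- against wild type. It gave 7 for rad21-/- against rad21+/- with BIO, where all correlations of same-numbered libraries exceeded 0.1. It moved the count past 1.5 times only for the response of rad21+/- to BIO, to 5, and for the rad21+/- interaction, to 10. In the other comparisons at least 1 pair of same-numbered libraries had a correlation under 0.1.

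When 1 replicate number was left out of every group, or for some comparisons 1 library, the calls against wild type ranged from 252 to 346 in untreated rad21-/-, 225 to 313 in untreated rad21+/-, 20 to 59 in untreated stag2b-/-, 312 to 374 in BIO-treated rad21-/-, 267 to 334 in BIO-treated rad21+/- and 107 to 166 in BIO-treated stag2b-/-. Those of rad21-/- against rad21+/- ranged from 0 to 1 untreated and 2 to 5 with BIO. Calls for the response to BIO numbered 0 to 13 for rad21-/-, 0 to 2 for rad21+/-, 5 to 57 for stag2b-/- and 46 to 174 for wild type. Interaction calls numbered 0 to 2 for rad21-/-, 0 to 6 for rad21+/- and 1 to 24 for stag2b-/-. For 49 results on named genes, 689 of 762 alternatives kept direction and call, 73 kept the direction and lost the call, and 0 reversed. Weakly expressed members were measured less precisely, with a median biological coefficient of variation of 0.384 below a log2 CPM of 0 in untreated libraries and 0.187 above 2.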
